A study of Mus musculus with 8 samples.

Results

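Endothelial marker genes were read in whole mouse kidney with and without the drug cinacalcet. The set holds 10 genes of the 14209 tested: Pecam1, Cdh5, Kdr, Flt1, Tek, Tie1, Eng, Emcn, Plvap and Ehd3. Its members were chosen by symbol, through the RefSeq accession that the array files give for each probe. No measured value was a criterion, but earlier results of these data were known when the members were chosen. The 10 genes had 12 probes, 2 each for Kdr and Plvap and 1 each for the others, and all 12 were well above background on all 8 arrays. No member was therefore lost to the filter on dim probes.

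The control group was 4 kidney samples from mice on standard chow. The treated group was 4 kidney samples from mice given cinacalcet, worded in the labels as 1 mg per g body weight, for 5 days. Cinacalcet is a calcimimetic, a drug that makes the calcium-sensing receptor respond to lower calcium. Labels give all animals in both groups as male and 12 weeks old and name no strain, genotype or pooling. They also do not state that each sample came from a different animal. The p-values thus rest on sample-to-sample spread, which may be partly technical.

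The renal endothelium is not one tissue. Glomerular capillaries filter plasma through fenestrae that are mostly open. The capillaries around the tubules carry away reabsorbed solute through fenestrae closed by a diaphragm, and the vasa recta run beside the loops of Henle. All of them depend on vascular endothelial growth factor from neighbouring epithelial cells, which acts through the receptors encoded by Kdr and Flt1. A second receptor system, Tek with its partner Tie1, answers the angiopoietins and keeps vessels quiescent. In RNA of a whole organ, fewer endothelial cells and less RNA per endothelial cell cannot be told apart.

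Cy3-labelled RNA of each sample was read on its own one-colour array, and all 8 arrays shared 1 slide. Between 51.8% and 58.0% of spots were well above background, and 4 arrays per group limit the precision. The tissue carried its defining markers, since all 10 proximal tubule genes looked up were measured and Miox stood at a log2 level of 9.89 in controls. "Log2 level" here means log2 intensity minus the array's 75th percentile of intensity. A level of 0 is thus that percentile, and levels are compared within a probe only.

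The arrays control 4, cinacalcet 2 and cinacalcet 3 stood apart before any comparison. None of 4 Y-linked genes was well above background on them, although every animal is labelled male, while the other 5 arrays showed 3 or 4 of the 4 genes. All fits were therefore repeated with that split entered as a blocking term, and for the 5 arrays that carry the signal, 3 control and 2 cinacalcet. For the named genes outside the marker set the text gives these fits where a call differs. Other list genes whose call differs are not named.

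None of the 10 endothelial marker genes passed the test between groups. In limma with Benjamini-Hochberg adjustment over all genes, 0 of 10 had an adjusted p under 0.05, whereas 8.02% of the 14209 genes did, 3.37% higher and 4.64% lower with cinacalcet. At an unadjusted p under 0.05 the count was 1 of 10, Flt1, beside 27.9% of all genes. Estimates were positive for 6 members and negative for 4. Their median log2 fold change was 0.04, against -0.03 over all genes, and their median absolute change was 0.10 against 0.17. The 95% intervals together ran from -0.41 (Kdr) to 0.51 (Flt1) on the log2 scale, which is 0.755-fold to 1.42-fold. Changes within such bounds were not resolved here. In simulated data with the spread of all 14209 genes, the same fit recovered 12% of genes changed by 0.3 and 34% of those changed by 0.5. Far fewer genes were changed there than passed in the data, and the markers varied less than the median gene. Those shares therefore do not give the chance of a call for the markers.

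**Figure D1:**
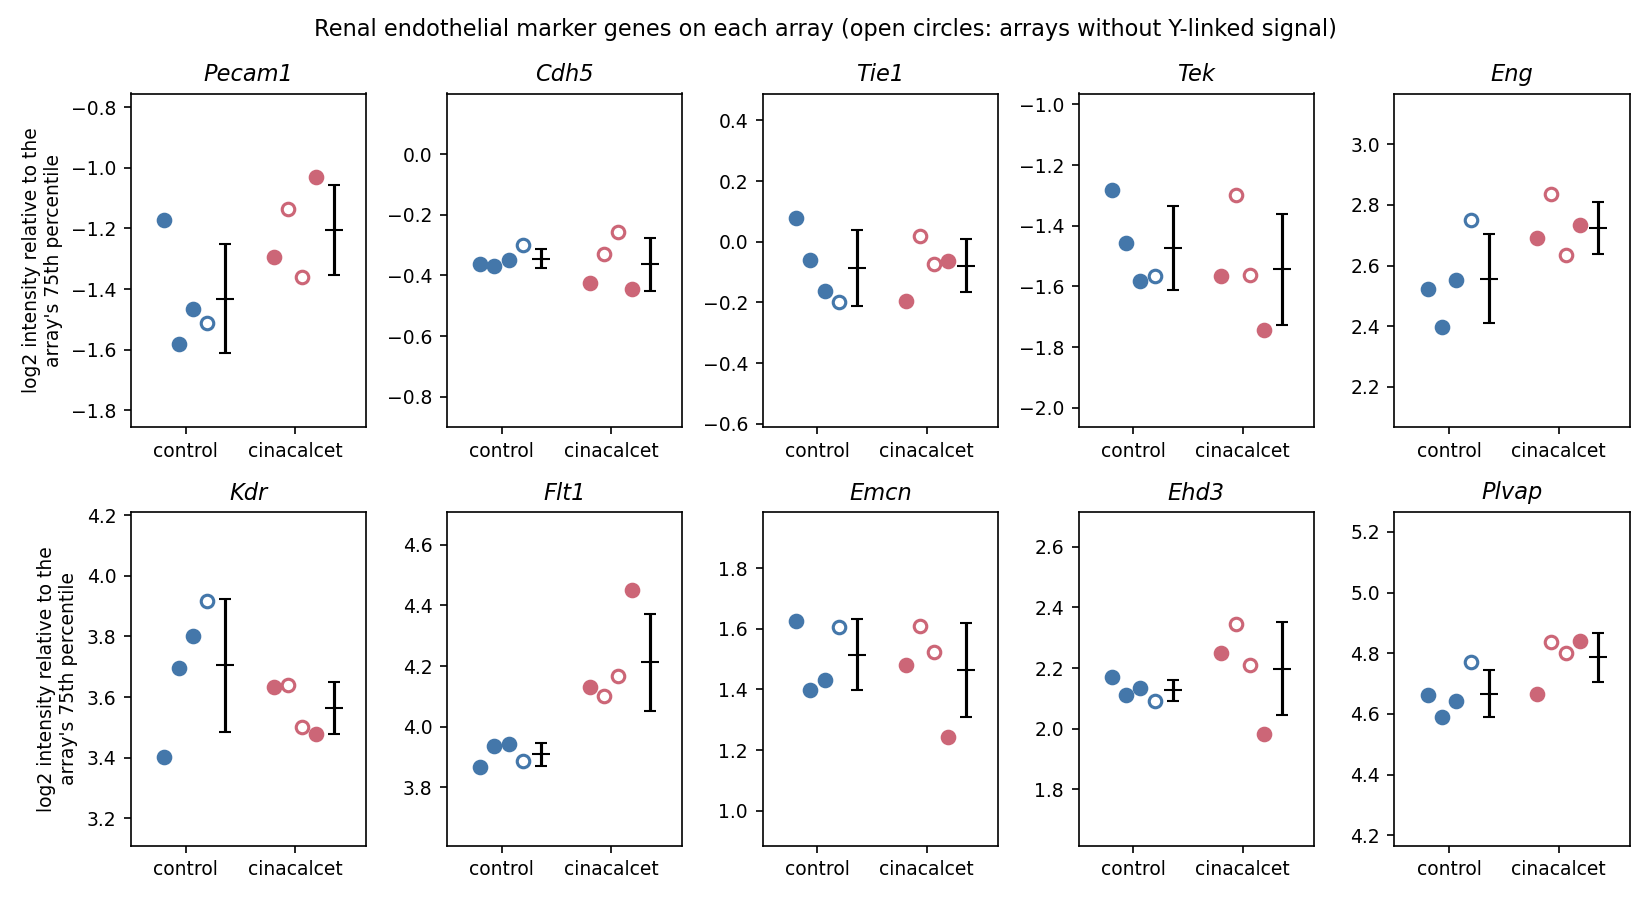
Log2 level of each endothelial marker gene on each array (y axis, log2 intensity relative to the array's 75th percentile, every panel spanning the same height), control in blue and cinacalcet in red, points within a group in the order of their replicate numbers, with mean and SD (n = 4) beside them. Open circles are the 3 arrays without Y-linked signal. In the Flt1 panel alone the groups are separate, from 3.87 to 3.94 in control and from 4.10 to 4.45 with cinacalcet.

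Pecam1 and Cdh5 encode proteins of the contacts between endothelial cells. PECAM-1 (CD31) joins neighbouring cells and is also made by platelets and leukocytes. Pecam1 stood at log2 levels of -1.17, -1.58, -1.46 and -1.51 on control arrays 1 to 4 and at -1.29, -1.14, -1.36 and -1.03 on cinacalcet arrays 1 to 4. Control 1 lay among the cinacalcet values, so the groups overlapped. The means were -1.43 ± 0.18 and -1.20 ± 0.15 (SD, n = 4 each), a difference of 0.23 (SE 0.11, limma adjusted p = 0.237). The Pecam1 probe had 2 spots per array, and their SD within an array ran from 0.02 to 0.30. That is a spread of single spots, whereas the difference of 0.23 is between means of 4 arrays each.

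Cdh5 encodes VE-cadherin, the adhesion molecule of endothelial adherens junctions and the member most restricted to endothelium. Its log2 levels were -0.36, -0.37, -0.35 and -0.30 in controls and -0.43, -0.33, -0.26 and -0.44 with cinacalcet. The control values all lay inside the range of the treated ones. The difference in Cdh5 was -0.02 (SE 0.07, 95% interval -0.17 to 0.14, adjusted p = 0.881 in limma). Cdh5 was also the steadiest member, with a pooled within-group SD of 0.066, and only 5.02% of all genes had a smaller one.

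Kdr and Flt1 encode VEGF receptors 2 and 1. KDR carries most of the mitogenic and permeability signal of VEGF-A, while FLT1 binds VEGF-A tightly, also binds VEGF-B and PlGF, and in its soluble form holds ligand away from KDR. Flt1 stood at log2 levels of 3.87, 3.94, 3.94 and 3.89 in controls and at 4.13, 4.10, 4.17 and 4.45 with cinacalcet. All 4 treated arrays lay above all 4 controls, and cinacalcet 4 was the highest. The means were 3.91 ± 0.04 and 4.21 ± 0.16 (SD, n = 4 each), a difference of 0.30 (SE 0.09) or 1.23-fold (95% interval 1.07 to 1.42).

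That difference in Flt1 had an unadjusted p of 0.00918 and an adjusted p of 0.0742 in limma, short of the threshold. Of all genes, 17.8% had groups that did not overlap, and 1 of the 10 members did. With the Y-linked split as a block, Flt1 differed by 0.33 (95% interval 0.13 to 0.53) and its limma adjusted p was 0.0381, past the threshold. That fit called 17.0% of all genes and no other member. On the 5 arrays with Y-linked signal the Flt1 difference was 0.37, with an adjusted p of 0.102. Leaving out each array in turn gave differences between 0.22 and 0.34 and adjusted p between 0.0643 and 0.161. The lowest difference came without cinacalcet 4. Flt1 passed in 4 of 24 alternative settings, and its estimate was positive in all 24.

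The brighter of the Kdr probes gave log2 levels of 3.40, 3.70, 3.80 and 3.92 in controls and 3.63, 3.64, 3.50 and 3.48 with cinacalcet. Controls bracketed the treated arrays, with control 1 lowest and control 4 highest of all 8. The difference was -0.14 (SE 0.12, 95% interval -0.41 to 0.12, limma adjusted p = 0.453). The other Kdr probe was printed as 10 spots on each array, whose SD within an array was 0.020 to 0.044. It stood at 2.48, 2.33, 2.41 and 2.45 in controls and 2.38, 2.38, 2.35 and 2.42 with cinacalcet. Its groups overlapped too, and the difference was -0.03 (SE 0.06, 95% interval -0.18 to 0.11, adjusted p = 0.768 in limma). Between control arrays the SD was 0.22 for the probe with 1 spot and 0.07 for the probe with 10. Kdr and Flt1 thus had estimates of opposite sign, and the difference between the receptors was not tested.

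**Figure D2:**
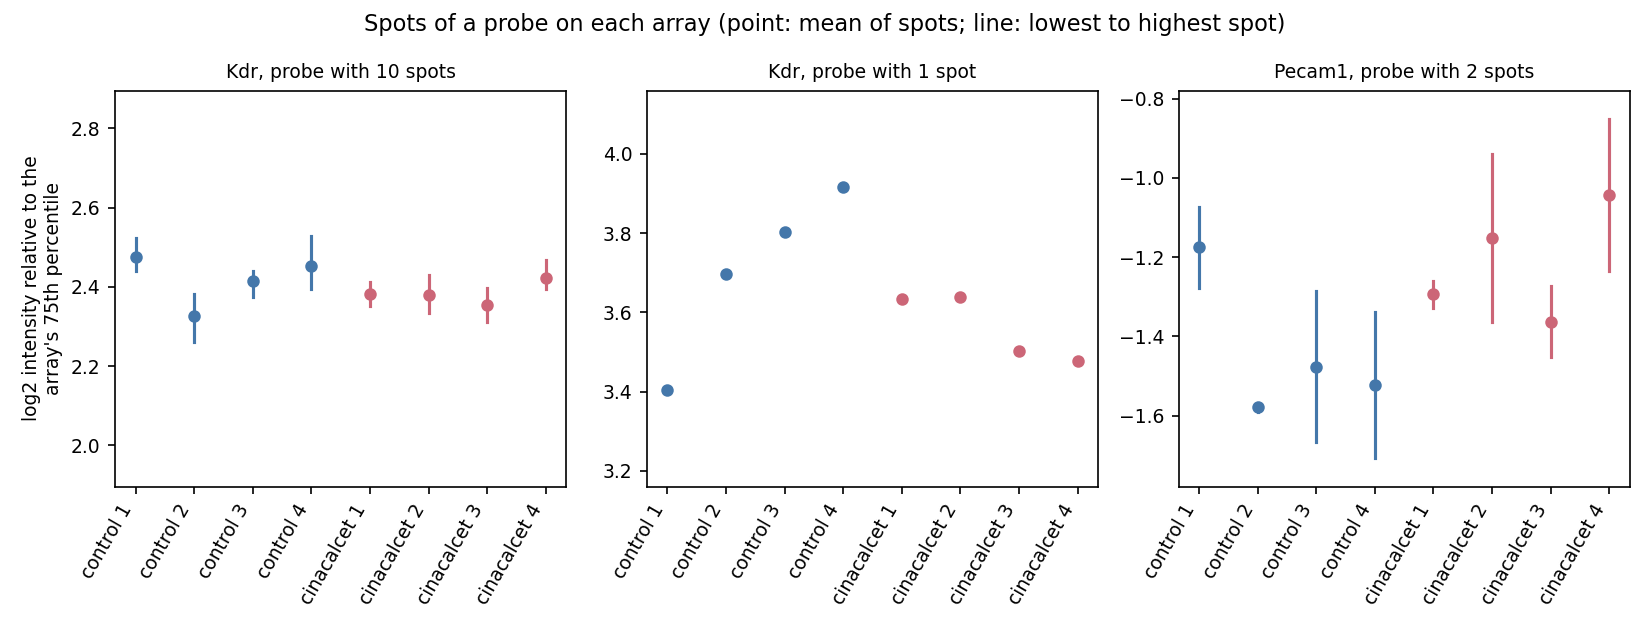
Log2 level on each array (x axis) of the Kdr probe with 10 spots, the Kdr probe with 1 spot and the Pecam1 probe with 2 spots (y axis, log2 intensity relative to the array's 75th percentile, same height in each panel), control in blue and cinacalcet in red. Points are the mean of a probe's spots and lines run from the lowest to the highest spot. The Kdr spots differ little within an array (SD 0.020 to 0.044), while the Pecam1 spots spread by an SD of up to 0.30.

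Tek and Tie1 encode the angiopoietin receptor TIE2 and the related TIE1, which modulates it. Tek stood at log2 levels of -1.28, -1.46, -1.58 and -1.57 in controls and -1.57, -1.30, -1.56 and -1.74 with cinacalcet. Both groups held arrays near the top and near the bottom of the range. The difference in Tek was -0.07 (SE 0.11, 95% interval -0.33 to 0.19, limma adjusted p = 0.715). Tie1 read 0.08, -0.06, -0.16 and -0.20 in controls against -0.19, 0.02, -0.07 and -0.06 with cinacalcet. The treated values fell within the span of the controls. Tie1 differed by 0.01 (SE 0.09, 95% interval -0.19 to 0.20, limma adjusted p = 0.964).

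Eng encodes endoglin, a co-receptor for BMP9 and TGF-beta that works with the kinase encoded by Acvrl1. Macrophages also make it. Eng log2 levels were 2.52, 2.40, 2.55 and 2.75 in controls and 2.69, 2.84, 2.64 and 2.73 with cinacalcet. Of the controls, only control 4 reached the treated values. Eng differed by 0.17 (SE 0.09, 95% interval -0.04 to 0.38, limma adjusted p = 0.269), and its estimate was 0.22 on the 5 arrays with Y-linked signal (limma adjusted p = 0.142).

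Emcn, Plvap and Ehd3 mark surfaces and capillary types. Endomucin, from Emcn, is a sialomucin of capillary and venous endothelium. Emcn stood at log2 levels of 1.63, 1.40, 1.43 and 1.60 in controls and 1.48, 1.61, 1.52 and 1.24 with cinacalcet. The groups covered nearly the same range, apart from cinacalcet 4 below it. The difference was -0.05 (SE 0.10, 95% interval -0.28 to 0.18, limma adjusted p = 0.776).

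Plvap encodes PV-1, which forms the diaphragms across the fenestrae of peritubular capillaries and is scarce in mature glomerular capillaries. Its brighter probe read 4.66, 4.59, 4.64 and 4.77 in controls and 4.67, 4.84, 4.80 and 4.84 with cinacalcet. Cinacalcet 1 and control 4 overlapped, and the other treated arrays lay above the controls. The difference in Plvap was 0.12 (SE 0.07, 95% interval -0.05 to 0.29, limma adjusted p = 0.321). Its other probe read 1.95, 1.69, 1.71 and 1.75 in controls and 1.83, 1.96, 2.00 and 2.03 with cinacalcet. Only control 1 reached the treated range there, and the difference was 0.18 (95% interval -0.01 to 0.38, limma adjusted p = 0.206). Both Plvap probes thus had positive estimates whose intervals include 0.

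Ehd3 encodes a membrane-trafficking ATPase that in the kidney is known from glomerular endothelium. Ehd3 log2 levels were 2.17, 2.11, 2.13 and 2.09 in controls and 2.25, 2.35, 2.21 and 1.98 with cinacalcet. Of the treated arrays, 3 lay above the controls and cinacalcet 4 lay below them. The difference was 0.07 (SE 0.09, 95% interval -0.13 to 0.27, limma adjusted p = 0.625), and it was -0.02 on the 5 arrays with Y-linked signal.

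**Figure D3:**
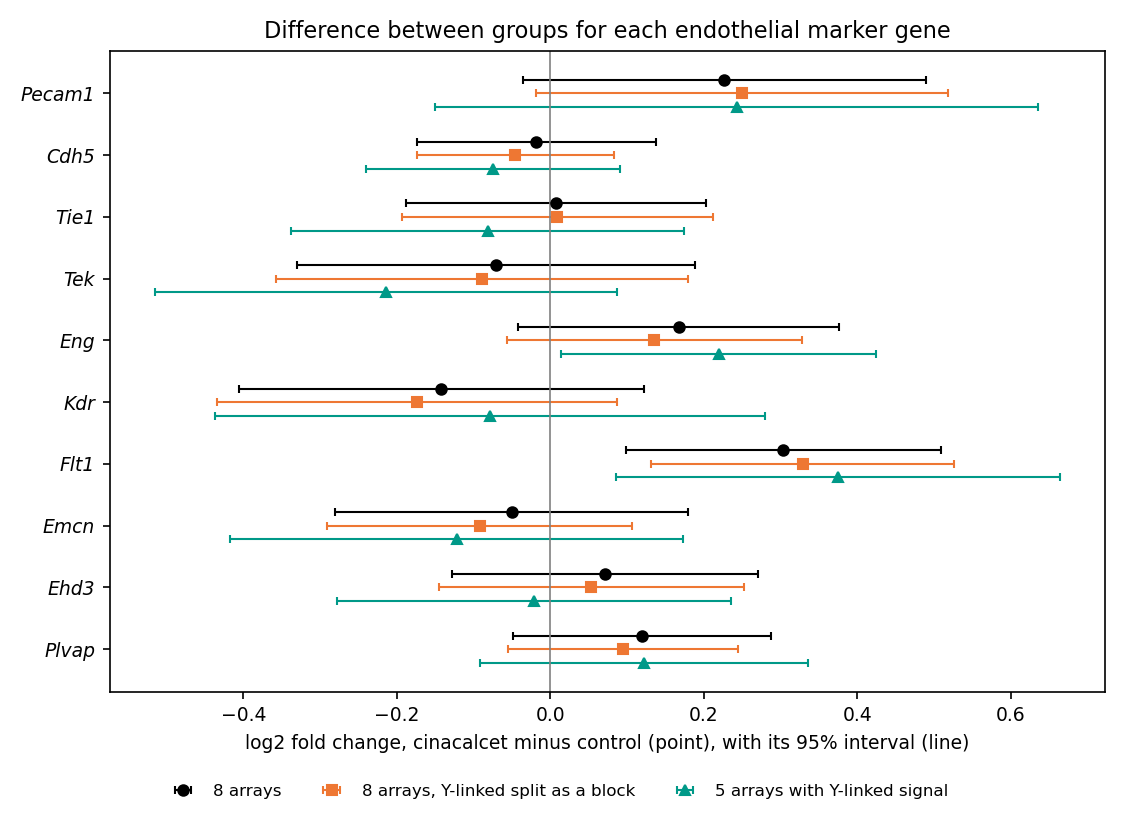
Log2 fold change of cinacalcet minus control for each endothelial marker gene (x axis, point) with its 95% interval (line), from all 8 arrays (black), all 8 with the Y-linked split as a block (orange) and the 5 arrays with Y-linked signal (green). The Flt1 intervals alone lie above 0 in all 3 fits. On 8 arrays the estimates run from -0.14 for Kdr to 0.30 for Flt1.

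For the other 9 members the estimates ran from -0.17 (Kdr) to 0.25 (Pecam1) with the Y-linked split as a block. On the 5 arrays that carry the signal they ran from -0.21 (Tek) to 0.24 (Pecam1), and none of the 9 passed in either fit in limma. Eng had a 95% interval of 0.01 to 0.42 on those 5 arrays.

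The markers did not move as one from array to array. Cinacalcet 4 held the highest value of 3 members (Pecam1, Plvap and Flt1) and the lowest of 4 (Cdh5, Emcn, Ehd3 and Tek). Control 1 was highest for 3 members (Emcn, Tek and Tie1) and lowest for 2 (Kdr and Flt1). Control 2 was lowest for 3 members, Pecam1, Plvap and Eng. Control 3 and cinacalcet 1 held neither extreme of any member. The sum of the 10 linear levels, in units of the array's 75th percentile, ranged from 66.5 to 73.6 in controls and from 71.7 to 77.1 with cinacalcet. Bright probes weigh most in such a sum, and the groups overlapped in it.

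All 10 members varied less within groups than the median gene. The pooled SD ran from 0.066 for Cdh5 to 0.167 for Kdr, and the share of all genes with a smaller SD ran from 5.02% for Cdh5 to 48.7% for Kdr. Flt1 and Eng stood between, at 27.5% and 29.3%. The scanner software put its own error at no more than 10.7% of the signal for these probes, and their raw intensities ran from 68.5 for Tek to 7036 for Plvap.

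No endothelial marker passed a test between arrays with and without Y-linked signal. With treatment in the fit, 0 of 10 members differed between arrays without and with Y-linked signal, while 19.1% of all genes did at an adjusted p under 0.05 in limma, and 0 members had an unadjusted p under 0.05 for it. The coefficient of that split ran from -0.10 for Flt1 to 0.17 for Emcn on the log2 scale. The interaction of treatment with the split passed for 0 of 10 members and for 0 of 14209 genes in limma, and 0 members and 1813 genes had an unadjusted interaction p under 0.05. The arrays without the signal include 1 control array, which limits this test.

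Genes around the markers were read from 18 further lists, 11 of them endothelial. The endothelial lists held 137 genes besides the 10 markers, and 125 of these were tested. In limma 8 rose and 8 fell, which is 12.8% of 125 beside 8.02% of all genes, and the median log2 fold change was 0.03. The count was 29 with the Y-linked split as a block (23.2%, beside 17.0% of all genes). On the 5 arrays that carry Y-linked signal it was 16 (12.8%, beside 7.85% of all genes). It ranged from 2 without control 2 to 28 without control 4, and all genes followed the same course, with 1.54% and 23.6% called in those fits against 1.6% and 22.4% of the 125. It was 3 without control 1 or control 3, 4 without cinacalcet 2 or cinacalcet 3, and 9 without cinacalcet 4.

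In the list of 24 other pan-endothelial genes 2 rose, 2 fell and 20 did not pass. Icam2, an adhesion ligand of endothelium, platelets and leukocytes, read 3.65, 3.69, 3.63 and 3.87 in controls and 3.24, 3.16, 3.25 and 3.02 with cinacalcet. The groups were well apart, and it fell by 0.54 (SE 0.09, limma adjusted p = 0.0143), a call kept in 7 of 8 fits that leave out 1 array. Ecscr, which encodes an endothelial surface protein, fell by 0.53. Adgrf5, an adhesion receptor of endothelium and other cells, rose by 0.77, and S1pr1, the sphingosine-1-phosphate receptor that supports barrier function, rose by 0.52. The adjusted p of those 3 genes was 0.0209 to 0.0287 in limma, and each kept its call in 2 or 3 of the 8 fits that leave out 1 array. Icam2 and Ecscr thus went down in the same arrays in which Pecam1 and Cdh5 gave no call.

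Of 15 ligands, receptors and modifiers of the VEGF, angiopoietin and apelin systems, 2 fell and none rose. Aplnr, the apelin receptor, read -2.15, -1.70, -2.29 and -2.33 in controls and -3.87, -4.61, -3.63 and -4.08 with cinacalcet. No array of one group came near the other, and Aplnr fell by 1.93 (SE 0.22, limma adjusted p = 0.00801). Its probe was dim, and with normexp background correction it fell by 0.71 with the same scaling. Vegfc, a ligand of VEGF receptors 3 and 2 best known from lymphatic growth, read 0.51, 0.44, 0.59 and 0.24 in controls against -0.26, -0.19, -0.04 and -0.16. The groups were apart again, and Vegfc fell by 0.61 (limma adjusted p = 0.0133). Both calls held in all 8 fits that leave out 1 array.

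Apart from Vegfc, the ligands of the marker receptors named here did not pass on the 8 arrays. They and 3 partner genes were named for that role. For Flt1 and Kdr, Vegfa differed by -0.19 (95% interval -0.36 to -0.02, limma adjusted p = 0.142), with -0.35 at its other probe. For Flt1, Vegfb differed by -0.14 (adjusted p = 0.218 in limma), and Pgf, well above background on 1 of 4 control arrays, by 0.39 (adjusted p = 0.380). For Tek, Angpt1 differed by -0.26 (95% interval -0.47 to -0.04, limma adjusted p = 0.122, and 0.0411 with the Y-linked split as a block) and Angpt2 by 0.05 (adjusted p = 0.917). Ptprb, whose product VE-PTP dephosphorylates TIE2, differed by 0.29 (95% interval 0.10 to 0.49, limma adjusted p = 0.0700). Of the alternative settings, 3 called Vegfa, 3 called Ptprb and 1 called Angpt1, and none called Vegfb, Pgf or Angpt2.

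Around Eng, 2 of 13 BMP and TGF-beta genes rose and none fell. Those were the receptors Tgfbr1, up by 0.38, and Tgfbr3, up by 0.46, which many kidney cells make (limma adjusted p = 0.0247 and 0.0401, calls kept in 2 and 3 of the 8 fits without 1 array). Of the 13, 8 had an unadjusted p under 0.05 in limma, beside 27.9% of all genes. Estimates were positive for 8 and negative for 5. With the Y-linked split as a block 3 rose and 1 fell, where 17.0% of all genes passed. Acvrl1 differed by -0.27 (limma adjusted p = 0.133) and Bmpr2 by 0.17 (limma adjusted p = 0.321). The circulating ligands Gdf2 and Bmp10 were not well above background on 4 arrays.

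Of 18 transcription factors with a role in endothelium, 2 rose and 1 fell. Foxo1, a brake on endothelial growth that many cells express, rose by 0.58 (0.36 at its other probe), and the flow-responsive factor Klf4 rose by 0.65. Lmo2, shared by endothelial and blood-forming cells, fell by 0.54. Among 17 vasoactive and haemostatic genes, Ece1 (endothelin-converting enzyme) rose by 0.36 and Ednrb (endothelin receptor B) by 0.38, while Ace (angiotensin-converting enzyme, abundant in proximal tubule too) fell by 0.54. The adjusted p of these 6 genes ran from 0.0228 to 0.0461 in limma. Each kept its call in 1 to 3 of the 8 fits that leave out 1 array.

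Lists tied to a vessel type were read next, where 27.9% of all genes had an unadjusted p under 0.05. For glomerular endothelium 0 of 8 passed (3 at an unadjusted p under 0.05), with Gata5 at -0.28 and Smad6 at 0.82. Smad6 passed with the Y-linked split as a block (0.63, limma adjusted p = 0.00896) and on the 5 arrays that carry the signal (0.65, limma adjusted p = 0.0485). Of 9 peritubular and venous genes Aplnr and Gpm6a fell, Gpm6a by 0.41 (limma adjusted p = 0.0228), and of 11 arterial and vasa recta genes Sema3g fell by 0.46 (limma adjusted p = 0.0346). Their calls held in 3 and 1 of the 8 fits without 1 array. None of 4 lymphatic genes passed (0 at an unadjusted p under 0.05), with Flt4 at 0.48, well above background on 2 arrays per group, and Pdpn at 0.18 (0.71 at its other probe). The Notch list had 0 of 9 (2 unadjusted), with Dll4 at -0.72 (limma adjusted p = 0.0532) and Notch4 at 0.35. With the Y-linked split as a block both passed, Dll4 at -0.62 (limma adjusted p = 0.0241) and Notch4 at 0.39 (limma adjusted p = 0.0411), as 17.0% of all genes did. The adhesion and activation list had 0 of 8 (2 unadjusted), with F11r at 0.23 and Jam3 at -0.29. In each list without a call, the genes named are those with the lowest p.

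**Figure D4:**
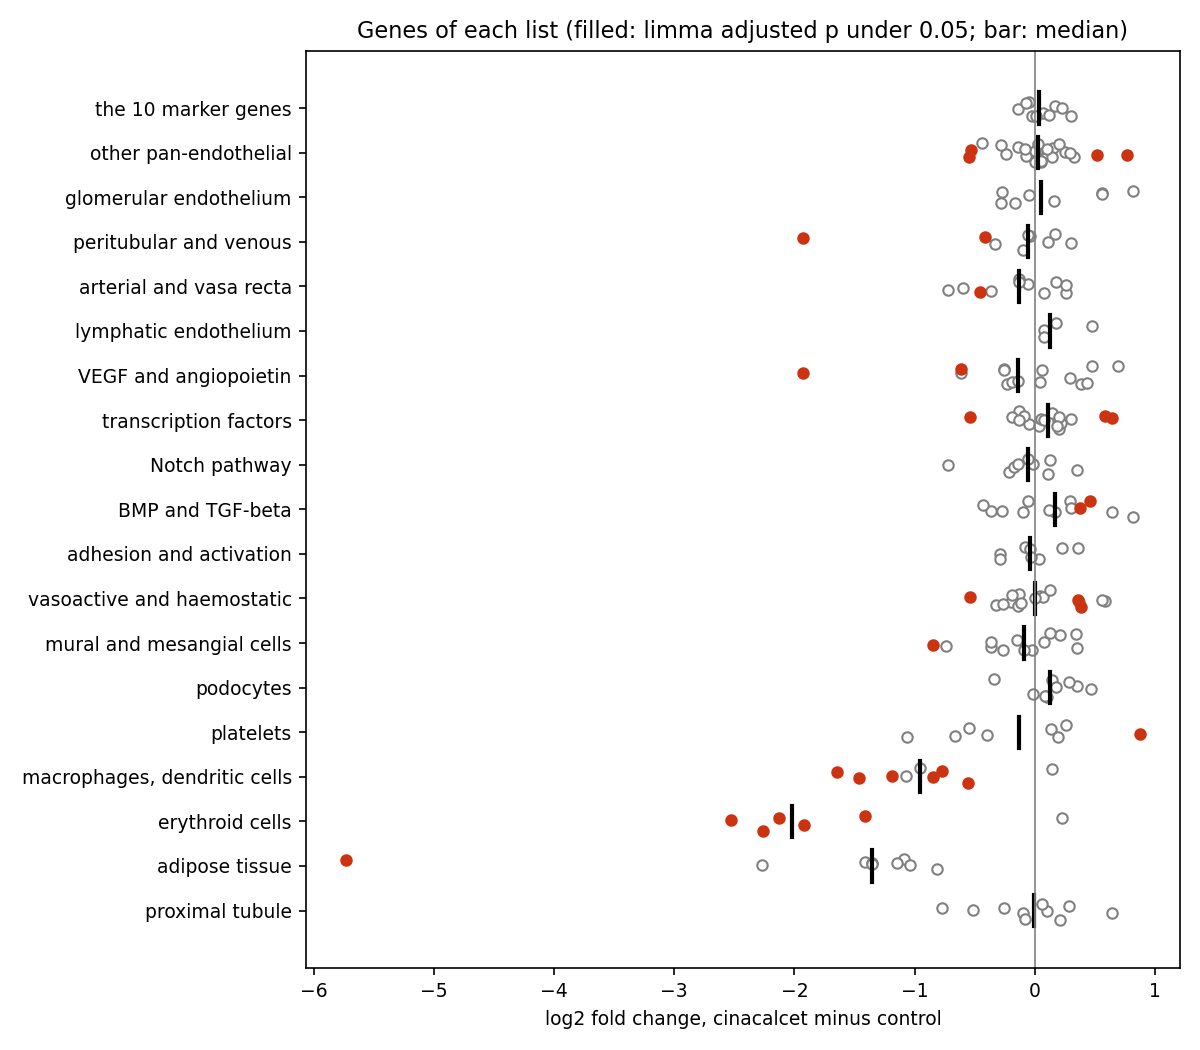
Log2 fold change of cinacalcet minus control (x axis) for every tested gene of the endothelial marker set, the 11 further endothelial lists and 7 lists of other kidney, blood or fat cells (rows). Filled red points passed limma at an adjusted p under 0.05, open points did not, and black bars are list medians. The 10 markers lie between -0.14 and 0.30 with no filled point, whereas the erythroid and macrophage lists lie mostly below 0.

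Markers of other cells moved with treatment in the same arrays. Of 6 erythroid genes 5 fell, where 4.64% of all genes did, and the 4 with the lowest p were Hbb-bt at -2.53, Alas2 at -2.26, Hba-a1 at -1.92 and Hbb-bs at -2.13 on the log2 scale. Slc4a1 alone had a positive estimate, 0.23 (limma adjusted p = 0.371). Of the 8 fits that leave out 1 array, Hbb-bt kept its call in 8, Alas2 in 4, and Hba-a1 and Hbb-bs in 3 each. The summed erythroid level was 1799 to 2127 in controls and 440.3 to 1210 with cinacalcet. The globin genes are near copies of each other, so their probes may share signal. Of 9 macrophage and dendritic cell genes 6 fell, among them Cx3cr1 at -1.46, Itgax at -1.19, Adgre1 at -1.65 and Csf1r at -0.56, whose other probes gave -0.61 and -0.05. Itgam alone of the 9 had a positive estimate, 0.15 (limma adjusted p = 0.603). Cx3cr1 and Itgax kept their calls in all 8 fits without 1 array, Csf1r in 5 and Adgre1 in 3. Their summed level was 84.6 to 98.2 in controls and 59.7 to 91.2 with cinacalcet. With normexp correction and the same scaling Itgax fell by 0.52 and Adgre1 by 0.78.

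In fat, all 9 adipose genes had negative estimates and 1 passed: Ucp1, the brown fat uncoupling protein, fell by 5.73, and it fell by 3.03 with normexp and the same scaling, and was well above background on 2 of 4 cinacalcet arrays. The adipose sum was 49.8 to 240.7 in controls, highest on control 4, and 22.5 to 116.0 with cinacalcet. Fat and blood hold endothelial cells or share genes with them, among these Pecam1, Eng, Icam2 and Lmo2. The part of these cells in the endothelial values was not tested.

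Marker lists of cells that neighbour the endothelium were also read. Of 13 mural and mesangial genes Kcnj8, a channel subunit of pericytes, fell by 0.85 (limma adjusted p = 0.00969), and with normexp it fell by 0.41, and the list's summed level was 29.7 to 42.7 in controls and 28.3 to 32.4 with cinacalcet. None of 10 podocyte genes passed (1 unadjusted), with Wt1 at 0.47, and sums of 47.8 to 67.5 and 44.1 to 60.6. Of 8 platelet genes, 4 had positive and 4 had negative estimates, with a median of -0.13. Itgb3 alone passed and rose by 0.88 (limma adjusted p = 0.0225, held in 3 of the 8 fits without 1 array). The platelet sums were 2.03 to 2.56 in controls and 1.69 to 2.48 with cinacalcet. None of 10 proximal tubule genes passed (2 unadjusted), with Slc5a12 at 0.29 and Miox at -0.26 (limma adjusted p = 0.0165 for Miox with the Y-linked split as a block), and the sum was 2200 to 2345 in controls and 1978 to 2063 with cinacalcet. With that block 1 podocyte gene and 2 proximal tubule genes, Miox among them, passed as lower, where 17.0% of all genes passed. No probe matched Cd68, Ahsp or Ccl21a, and the defining markers Lyve1 and Lep were not well above background on 4 arrays.

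Across all lists, 27 named genes passed on the 8 arrays, and all 27 also passed with the Y-linked split as a block. On the 5 arrays that carry the signal 20 of them passed, and Foxo1, Tgfbr1, Tgfbr3, Ednrb, Sema3g, Itgb3 and Hba-a1 did not.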

How the data were processed

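The authors deposited the scanner output of 8 one-colour Agilent arrays, with processed intensity on a linear scale, background-corrected by Agilent Feature Extraction 11.0.1.1 per the file headers. Version 9.5 of the software is given in the submitters' processing notes. Control spots were left out, outlier spots set to missing and spots of a probe averaged. Probes were named through RefSeq GRCm38.p6 accessions (27235 of 55681 matched 1 gene). Coordinates are not used here, since the array's annotation is on another build. Log2 intensity minus the array's 75th percentile was fitted in limma 3.58.1 (R 4.3.3, lmFit and eBayes, no covariate) on genes whose probe was well above background on at least 4 arrays, with the brightest probe standing for its gene. P-values were adjusted by Benjamini-Hochberg over 14209 genes. The fit was tested on simulated data. The endothelial markers, lists and alternatives were chosen with earlier results of these data known. Named are all markers and, per list, up to 4 called genes with the lowest p, or 2 where none passed; 1 gene under this rule is not reported here. The 8 ligand and partner genes named for their role were added after values were seen. Alternatives were other scalings, normexp with an offset of 50, other filters, probe means, array weights, blocks and leaving out each array.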

Additional observations from a re-analysis of the deposited data

Results flagged for a closer look

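Among the named genes, 2 of 94 groups of 4 arrays held an array whose gap to the rest was large against the group's range by Dixon's test at the 95% level, which chance reaches in about 1 in 20 groups. For Notch4 it was cinacalcet 4 at 1.66, with the other treated arrays at 1.28 to 1.32, a gap of 0.892 of the range. For F11r it was control 3 at 4.72, with the other controls at 4.81 to 4.82, a gap of 0.834 of the range. None of the 20 groups of the 10 endothelial markers held such an array.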

How the results depend on the processing

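The 0 of 10 markers past the threshold became 1 (Flt1) with quantile normalization, with normexp and quantile normalization, and with the Y-linked split as a block, and 2 (Flt1 and Eng) with array weights, which called 38.3% of all genes. It stayed 0 in the other alternatives, including each left-out array. With no filter on dim probes (more genes tested) the 16 called genes of the other endothelial lists became 4, beside 1.78% of all genes. They became 39 with array weights and 29 with the Y-linked split as a block, which called 17.0% of all genes. They became 0 with slide column as a block and within either slide row (fewer arrays). Those fits called 34, 1 and 0 of 14209 genes. At an unadjusted p under 0.05 in limma they gave 34, 33 and 14 list genes, beside 3461, 3859 and 1068 of all genes. Slide column 1 held only cinacalcet 1 and 4, and slide column 4 only control 2 and 4. Treatment and slide column were thus partly confounded, and the column block compares the groups only within columns 2 and 3. Leaving out each array gave 2 to 28. Deviations of same-numbered arrays from their group means correlated at 0.34, -0.54, -0.36 and -0.56. Control 4 correlated at 0.70 and 0.56 with cinacalcet 2 and 3, the other arrays without Y-linked signal. That split weighs on these values, so they cannot show whether the numbers pair samples, and the labels name no pairing. The replicate block, which leaves fewer residual degrees of freedom, called 0 of the endothelial list genes, 0 markers and 0 of 14209 genes in limma (28, 1 and 2869 at an unadjusted p under 0.05).

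Sign changes concern uncalled estimates, and their cause was not tested. On the 8 arrays Flt4 was 0.48 and Pgf 0.39, and the other genes with a sign change lay between -0.07 (Tek) and 0.07 (Ehd3). With normexp and the 75th percentile Tie1 was -0.0040, Flt4 -0.038, Pgf -0.045 and Angpt2 -0.0029. With normexp and quantile normalization Tie1 was -0.0031 and Angpt2 -0.0093, and with the median of detected probes Tie1 was -0.0011. With array weights Cdh5 was 0.019 and Emcn 0.043. With slide column as a block Cdh5 was 0.063, Emcn 0.039 and Tek 0.0023. Within slide row 1 Cdh5 was 0.018, Emcn 0.087 and Tie1 -0.023, and within row 2 Angpt2 was -0.43. With the Y-linked split as a block Angpt2 was -0.082. With the 5 arrays that carry Y-linked signal Ehd3 was -0.021, Tie1 -0.081, Pgf -0.13 and Angpt2 -0.16. Leaving out each array gave Cdh5 -0.054 to 0.0082, Emcn -0.099 to 0.023, Tie1 -0.031 to 0.062 and Angpt2 -0.090 to 0.25. Of the 27 named genes that passed, picked for the lowest p in their lists, none changed sign. In every fit that leaves out 1 array, 7 of them kept their call. The differences of Aplnr, Kcnj8, Itgax, Adgre1 and Ucp1 shrank with normexp. Its offset of 50 is added to every intensity and by itself shrinks log differences, most at low intensity. The shrinkage therefore cannot show whether background limits these probes, which was not tested.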
